A study of Rattus norvegicus with 10 samples.

Results

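The cytosolic ribosomal protein genes encode the proteins that, with ribosomal RNA, form the small and the large subunit of the ribosome. They were taken as every gene whose rat symbol begins with Rps or Rpl and a digit, together with Rpsa, Rplp0, Rplp1 and Rplp2. The Rps6k kinases, which share the first letters only, were left out, as were 10 probes of 8 genes whose symbols have an l ending (Rpl22l1, for example). The rule found 107 probes of 73 genes, 29 of the small and 44 of the large subunit, among the 41012 probes and 13832 named genes of the array, and it uses names only, not measured values. RefSeq holds 78 rat genes that fit the rule, and the other 5 had no named probe here and were not analysed.

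RNA from the livers of 10 male Wistar rats was hybridised, 1 array per rat, to Agilent whole rat genome arrays in 1 colour, a format in which each spot's brightness reports 1 RNA sample. The DEN/TAA group (5 rats) received diethylnitrosamine (DEN), a DNA-alkylating liver carcinogen, in 1 intraperitoneal dose of 200 mg/kg at 6 weeks of age. From 2 weeks later these rats were injected intraperitoneally with thioacetamide (TAA), a toxin activated in hepatocytes, at 200 mg/kg and 2 injections per week, with 3 weeks of injections followed by 1 week without, over a period of 23 weeks. The control group (5 rats) received vehicle only. The labels give an age of 23 weeks for all rats, which conflicts with a course of 23 weeks begun at 6 weeks of age, so the length of treatment is not settled. The series title presents the protocol as a model of liver cancer arising in cirrhosis, and the labels do not say whether a piece of liver held tumour. The arrays lay on 3 slides that all held both groups.

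The arrays themselves differed between the groups. In DEN/TAA livers 39.8% ± 4.27 of spots were well above background, against 25.2% ± 6.02 in control livers (SD, n = 5 each), with the fewest, 16.4%, in control replicate 5. The number of arrays, not a read depth, sets the precision here. The limma p-values set the difference of group means against the spread between rats within groups. All 11 hepatocyte markers were above background in both groups. Their summed scaled signal was 221 to 279 in DEN/TAA livers and 427 to 663 in control livers, and 10 of the 11 fell. Markers of other cells moved the other way: 7 of 9 measured stellate cell and myofibroblast markers rose (summed signal 3.53 to 5.68 in DEN/TAA and 0.958 to 1.43 in control livers), as did 12 of 13 macrophage markers (15.3 to 22.8 and 4.46 to 8.97) and 5 of 5 measured bile duct markers (0.695 to 1.25 and 0.0719 to 0.141). Among the bile duct markers, Krt19, Spp1, Cldn4 and Prom1 were well above background on no control array, and Krt19 was at least 9.93-fold brighter in DEN/TAA livers. Of the endothelial markers 3 of 4 measured rose, with overlapping sums (1.52 to 2.03 and 1.07 to 2.21). The T, NK and B cell markers (3 of 4 measured rose, 0.176 to 0.22 and 0.0478 to 0.129) and the cycling cell markers (3 of 3 measured rose, 0.339 to 0.514 and 0.121 to 0.213) were dim in both groups. Cd163, Trem2, Gpnmb, Cd3g, Zap70, Pou2af1 and Ccnb1 were also above background on no control array. These genes and the 4 bile duct ones passed the filter of at least 5 arrays through DEN/TAA arrays alone. The filter thus favoured a rise in them, and their rises are not separate evidence. Over all genes tested 39.2% rose and 16.3% fell. In whole liver RNA, a change in the share of a cell type and a change in RNA per cell cannot be told apart. The part of these markers in the results on ribosomal proteins was not tested.

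A ribosome holds 1 copy of most of its proteins, so cells make them in matched amounts and degrade those that find no partner. In mammals the ribosomal protein mRNAs begin at a C followed by an unbroken run of pyrimidines, the 5′ terminal oligopyrimidine (TOP) motif, through which mTORC1 and the RNA-binding protein Larp1 control their translation. Several ribosomal proteins also act outside the ribosome: free Rpl5 and Rpl11, bound to 5S RNA, hold back Mdm2, the ubiquitin ligase of p53.

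The bases around the annotated start were searched for pyrimidine runs, wherever in the window they lie, which is looser than the TOP motif. In the RefSeq promoter table of the rat assembly GRCr8, 59 of the 73 genes had an entry. The 25 bases on each side of the annotated start were searched on the gene's strand for a run of at least 8 C or T bases. Such a run stood in 48 of 59 ribosomal protein windows (81.4%), in 14 of 63 windows of mitochondrial ribosomal protein genes (22.2%) and in 5307 of 27456 windows of all genes (19.3%). On the other strand the shares were 6.78%, 4.76% and 20.8%. The run is thus frequent on the gene's strand and not on the opposite one. The letters CTTTCC, which can lie inside such a run, stood in 30.5% of ribosomal protein windows and in 2.27% of all windows on the gene's strand, and in 1.69% and 2.17% on the other strand. All 18 ribosomal protein windows with these letters also held a run. Shown here are the 4 genes with an entry whose difference between DEN/TAA and control livers was highest (Rps19, Rpl17, Rplp0, Rps7) and the 4 with the lowest (Rpl10, Rpl10a, Rpl35, Rpl41), each 5′ to 3′ on the gene's strand with the annotated start as base 26 and runs of at least 8 pyrimidines in capitals.
Rps19, chr1:89608663-89608712, + strand: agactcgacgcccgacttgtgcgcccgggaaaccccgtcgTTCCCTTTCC
Rpl17, chr18:70856251-70856300, + strand: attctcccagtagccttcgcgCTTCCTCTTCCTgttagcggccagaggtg
Rplp0, chr12:46718366-46718415, - strand: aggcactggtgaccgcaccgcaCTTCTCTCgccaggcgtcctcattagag
Rps7, chr6:50999421-50999470, - strand: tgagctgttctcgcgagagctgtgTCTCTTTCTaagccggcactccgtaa
Rpl10, chrX:157205825-157205874, + strand: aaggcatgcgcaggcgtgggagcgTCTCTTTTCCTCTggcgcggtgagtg
Rpl10a, chr20:6390508-6390557, + strand: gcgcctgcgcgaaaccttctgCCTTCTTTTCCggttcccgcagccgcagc
Rpl35, chr3:43165897-43165946, - strand: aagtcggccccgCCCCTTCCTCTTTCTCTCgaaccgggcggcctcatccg
Rpl41, chr7:1563473-1563522, - strand: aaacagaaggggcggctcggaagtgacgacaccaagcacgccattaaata

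The run did not sort the genes by their difference in the liver. Rpl10, the lowest, has a run of 13 bases and Rpl35 one of 18, the longest seen within the 8 windows. Rps19 has at least 10, since its run reaches the end of the window. Over all members with an entry, the median log2 difference was 0.61 for the 48 genes with a run and 0.61 for the 11 without. In Rpl41 no run was found in this window, which says only that these letters are not there.

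Ribosomal protein transcripts were higher in DEN/TAA livers as a group, and their differences were close to each other. Of 73 genes tested, 57 rose, 0 fell and 16 did not pass the threshold (limma, adjusted p under 0.05 over all 6855 genes tested), where 39.2% of all genes tested rose and 16.3% fell. Log2 levels are given relative to each array's 75th percentile, and differences are DEN/TAA minus control. The median difference was 0.61 (1.53-fold), with the middle of the genes between 0.43 and 0.73 (quartiles), and 72 of the 73 were above 0. Over all genes tested the median was 0.33 (1.25-fold). The differences of the ribosomal protein genes had an SD of 0.23 across genes, against 1.22 across all genes tested. In 42 of the 73 genes every DEN/TAA rat lay above every control rat, as in 28.1% of all genes, and in 0 the reverse held, as in 11.4%. Because all 73 genes were above background on all 10 arrays, the low-signal filter removed none of them.

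**Figure D1:**
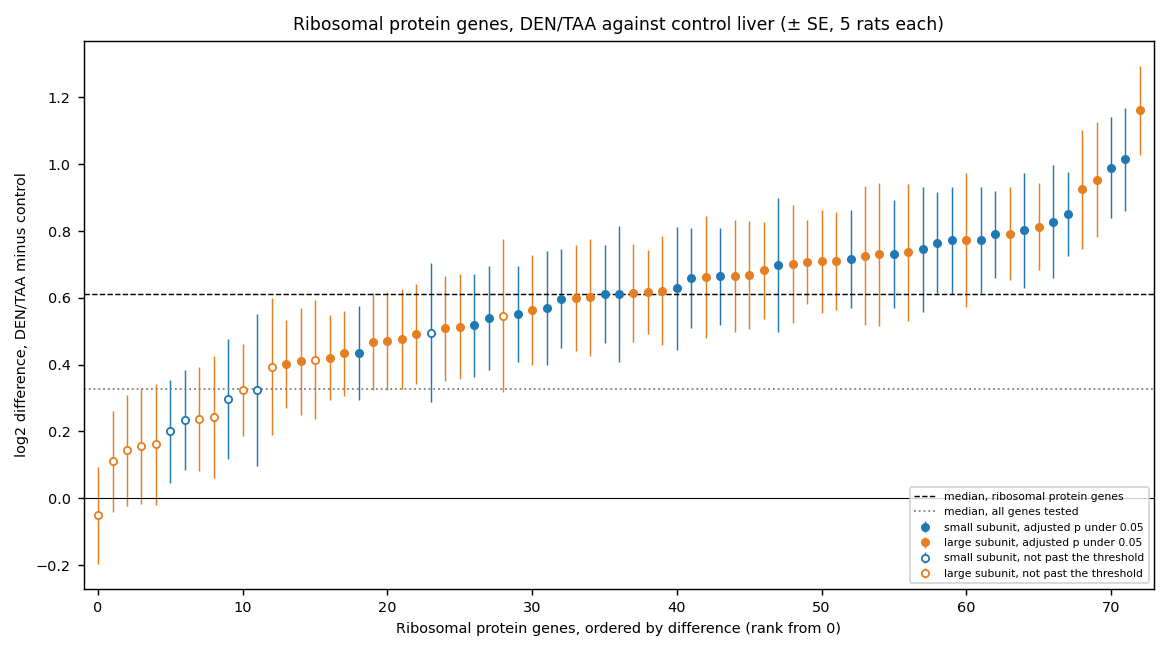
Log2 difference (DEN/TAA minus control, y axis) of each of the 73 ribosomal protein genes (x axis, by rank from low to high), with SE from 5 rats per group. Filled points passed adjusted p under 0.05 and open points did not; the dashed line marks the median of these genes (0.61) and the dotted line that of all genes tested (0.33). Open points crowd at the low end, where Rpl10 (-0.05) is the only gene below 0.

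The median ribosomal protein gene stood at log2 levels of 3.06, 3.13, 3.13, 3.17 and 2.93 in DEN/TAA replicates 1 to 5, and at 2.38, 2.46, 2.32, 2.32 and 2.71 in control replicates 1 to 5. On this scale the groups did not overlap, and the nearest pair was DEN/TAA replicate 5 and control replicate 5, the dimmest array. Set against the median of all genes tested on the same array, the groups did overlap. The median ribosomal protein gene then lay 5.79 to 6.01 above it in DEN/TAA rats and 5.52 to 5.68 in control replicates 1 to 4. Control replicate 5, at 6.00, lay within the DEN/TAA range. The share of all processed signal on an array that fell on the 107 ribosomal protein probes was 9.61%, 10.3%, 9.91%, 10.5% and 9.36% in DEN/TAA replicates 1 to 5. It was 4.92%, 5.92%, 5.49%, 5.43% and 5.71% in control replicates 1 to 5. The share thus averaged 9.94% ± 0.47 in DEN/TAA and 5.49% ± 0.37 in control livers (SD, n = 5 each), 1.81 times as much, with no overlap (two-sided exact permutation test over all assignments of rats to groups, p = 0.00794, the smallest it can give). With the local background subtracted from median spot signal instead, it was 8.15% ± 0.48 in DEN/TAA and 3.69% ± 0.61 in control livers, 2.21 times as much (exact p = 0.00794). The share needs no scaling between arrays, but it also moves with the summed signal of all other probes, among them the hepatocyte genes that fell.

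**Figure D2:**
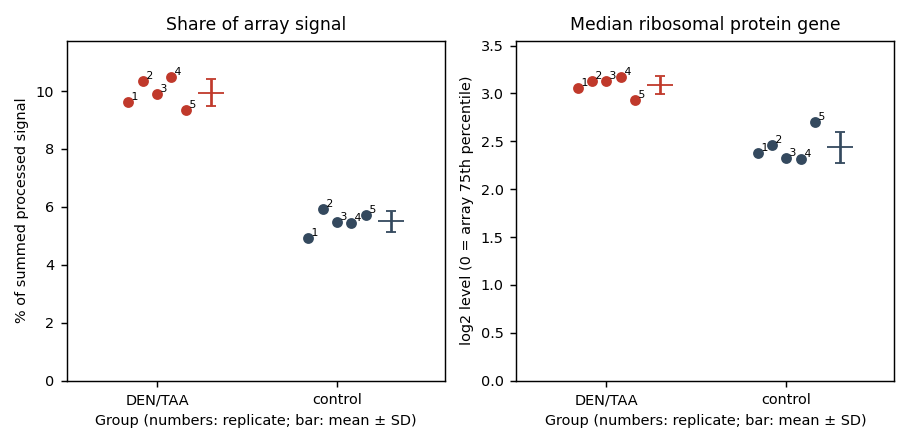
Left, percentage of each array's summed processed signal on ribosomal protein probes; right, median log2 level of the 73 genes relative to the array's 75th percentile. Points are rats, labelled by replicate number, and bars are mean ± SD (n = 5 each). In both panels all 5 DEN/TAA rats lie above all 5 control rats, and control replicate 5 is the highest control in the right panel.

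Ribosomal protein probes are among the brightest of the array: 69 of the 73 genes lay among the 686 brightest of the 6855 genes, though brightness also depends on the probe. Those 686 genes had a median difference of -0.13, with 28.3% higher and 37.9% lower, where the 69 ribosomal protein genes had a median of 0.60. With only genes above background on all 10 arrays in the test, 61 of 73 ribosomal protein genes rose and 0 fell, against 32.3% and 26.5% of the 3568 genes tested, whose median was 0.10.

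**Figure D3:**
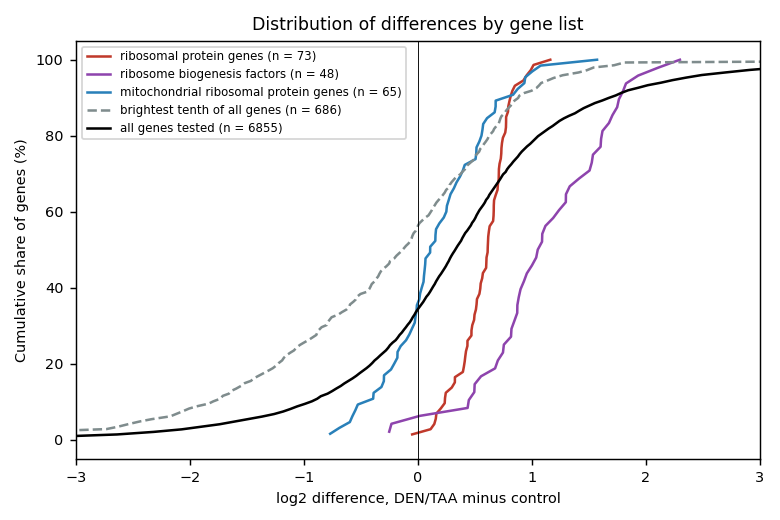
Cumulative share of genes (y axis, %) against log2 difference, DEN/TAA minus control (x axis), for the ribosomal protein genes, ribosome biogenesis factors, mitochondrial ribosomal protein genes, the 686 brightest genes and all genes tested. The axis stops at 3 in either direction. The curve of the ribosomal protein genes is the steepest, crossing its middle at 0.61, while the 686 brightest genes cross at -0.13.

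How far the group stood above 0 depended on how arrays were scaled to each other. The authors' own log2 table was used as 1 of 6 scalings. Across the 6, the median difference of the 73 genes lay between 0.31 (75th percentile over all probes) and 1.27 (spike-in), and 0 members fell under any of them. The same choice moved all genes: their median was 0.33, 0.02 and 0.99 with the percentile over detected probes, over all probes and the spike-ins, 0.17 with quantile normalisation, 0.08 by the authors' values and -0.26 with normexp background correction. The median ribosomal protein gene lay 0.28 above the median of all genes under each of the first 3, 0.63 above with quantile normalisation, 0.72 above by the authors' values and 0.91 above with normexp. The first 3 subtract 1 value per array, which shifts all its genes alike, so their gaps had to be equal and are not separate evidence. With the percentile over all probes 16 of 73 passed the threshold, a share near the 23.6% of all genes that did. With normexp 57 of 73 rose where 13.7% of all genes did and 2016 genes fell against 936 that rose. Quantile normalisation gave 68 where 28.3% of all genes rose, the authors' values 71 where 29.8% did, and the spike-ins 73 where 64.9% did.

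**Figure D4:**
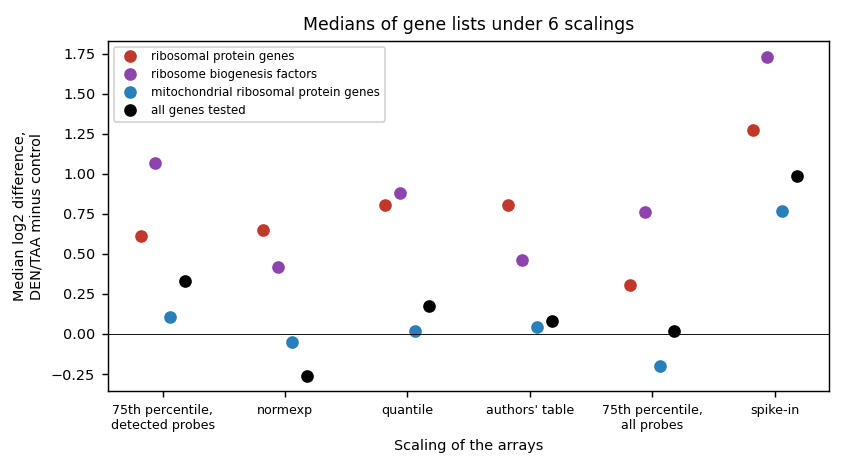
Median log2 difference, DEN/TAA minus control (y axis), of 4 sets of genes under 6 ways of scaling the arrays (x axis). Ribosomal protein genes lie above all genes tested in every scaling, by 0.28 to 0.91, and mitochondrial ribosomal protein genes lie near 0 except with the spike-ins (0.77) and the percentile over all probes (-0.20). Gaps between sets are equal by construction under both percentiles and the spike-ins.

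Within slides, the median difference of the 73 genes was 0.65 on slide 1 (72 genes above 0), 0.72 on slide 2 (73 genes) and 0.37 on slide 3 (60 genes), while all genes had medians of 0.33, 0.33 and 0.31. Slide 3 compares 1 DEN/TAA rat with 2 control rats, one of them on the dimmest array. In total 60 of 73 genes were above 0 on each slide, as were 51.6% of all genes.

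Among the small subunit proteins, 24 of 29 (82.8%) rose and 0 fell, with a median difference of 0.66. Of all genes tested 39.2% rose and 16.3% fell, with a median of 0.33. Rps19, needed for maturation of 18S RNA and mutated in human Diamond-Blackfan anaemia, stood at log2 levels of 3.25, 3.46, 3.38, 3.50 and 2.91 in DEN/TAA livers and 2.36, 2.44, 2.30, 2.08 and 2.24 in control livers. The groups lay apart and Rps19 rose by 1.01 (SE 0.15, 2.02-fold, adjusted p = 0.0002). Rps7, needed for processing of 18S RNA, was tight within groups, at 2.62, 2.72, 2.73, 2.87 and 2.79 in DEN/TAA and 1.90, 1.99, 1.77, 1.98 and 1.83 in control livers. Its rise was 0.85 (SE 0.13, adjusted p = 0.000161).

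Other small subunit proteins spanned the group's quartiles. Rps6, the best known substrate of the S6 kinases downstream of mTORC1, stood at 4.49, 4.79, 4.72, 4.78 and 4.66 in DEN/TAA livers and 3.68, 4.06, 4.07, 4.03 and 4.30 in control livers, without overlap. It rose by 0.66 (SE 0.15, adjusted p = 0.00287). Rps3, which lines the mRNA entry channel and also acts in DNA repair, rose by 0.72 (SE 0.15), and Rps4x, the X-linked form of S4, by 0.60 (SE 0.15). Rpsa, also known as a laminin receptor precursor, rose by 0.57 (SE 0.17). Rps27a, made as a fusion of ubiquitin and S27a, lay above the upper quartile of 0.73, with a rise of 0.77 (SE 0.15), and the lowest DEN/TAA rat (2.93) lay above the highest control rat (2.71). Rps18, of the head of the small subunit, was among the 6 smallest rises, at 0.43 (SE 0.14, adjusted p = 0.021).

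The 5 small subunit genes that did not pass were Rps2, Rps21, Rps25, Rps27 and Rps29, with differences of 0.20 to 0.50. Rps27, a zinc-binding protein, stood at 2.31, 2.74, 2.22, 2.52 and 1.68 in DEN/TAA and 2.02, 2.41, 1.97, 1.42 and 2.03 in control livers. These groups overlap, and the spread within them (SD 0.40 and 0.35) was wider than the difference of 0.32 (adjusted p = 0.248). Rps2, of the mRNA entry channel, stood at 4.48, 4.63, 4.69, 4.60 and 4.47 in DEN/TAA and 4.09, 4.45, 4.27, 4.28 and 4.77 in control livers. Here control replicate 5 was the highest of the 10 rats.

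Among the large subunit proteins, 33 of 44 (75%) rose and 0 fell, with a median difference of 0.58. Of all genes tested 39.2% rose and 16.3% fell, with a median of 0.33. Rpl17, near the exit tunnel of the nascent chain, stood at 3.15, 3.34, 3.36, 3.46 and 3.10 in DEN/TAA and 1.85, 2.41, 2.43, 2.27 and 2.69 in control livers. It rose by 0.95 (SE 0.17, 1.94-fold, adjusted p = 0.000695), with control replicate 1 the lowest rat and no overlap.

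The stalk of the large subunit, which recruits elongation factors, is built from Rplp0 with Rplp1 and Rplp2. Rplp0 stood at 0.08, -0.36, -0.24, 0.02 and -0.66 in DEN/TAA and -0.83, -1.34, -1.16, -1.13 and -1.33 in control livers, and rose by 0.92 (SE 0.18, 1.90-fold, adjusted p = 0.00104). Rplp1 rose by 0.51 (SE 0.16) and Rplp2 by 0.66 (SE 0.18), so all of the stalk was higher. Rplp0 is often used as a reference gene in PCR.

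Rpl5 and Rpl11, the pair that carries 5S RNA, both rose. Rpl5 stood at 2.07, 2.22, 2.06, 2.14 and 2.13 in DEN/TAA and 1.38, 1.70, 1.42, 1.55 and 1.50 in control livers, a rise of 0.62 (SE 0.13, adjusted p = 0.00153). Rpl11 stood at 3.01, 3.05, 3.10, 3.15 and 3.15 in DEN/TAA and 2.77, 2.60, 2.48, 2.65 and 2.79 in control livers, a rise of 0.43 (SE 0.13, adjusted p = 0.0123). Both pairs of groups lay apart, with SDs of 0.06 for each gene in DEN/TAA livers. Rpl3, close to the peptidyl transferase centre, rose by 0.74 (SE 0.21), though DEN/TAA replicate 2 (0.32) lay below control replicate 4 (0.38). Rpl13a, known in human monocytes for a part in translational silencing, rose by 0.56 (SE 0.16), and Rpl22, an RNA-binding protein dispensable for general translation in mice, by 0.71 (SE 0.15).

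The smallest rises were in Rpl29 (0.40, SE 0.13), Rpl32 (0.41, SE 0.16), Rpl8 (0.42, SE 0.13), Rpl11, Rps18 and Rpl19 (0.47, SE 0.14). Rpl8 binds near the peptidyl transferase centre, and Rpl19 reaches across to the small subunit. Rpl29 passed in 17 of 22 alternative settings, Rps18 in 15 and Rpl32 in 10. Rpl32 had the weakest test (adjusted p = 0.0465), and its lowest DEN/TAA rat (3.84) lay below its highest control rat (4.05). The threshold fell among like values: Rpl7, with 0.32 (SE 0.14, adjusted p = 0.0646), Rps25 with 0.50 (SE 0.21, adjusted p = 0.061) and Rpl34 with 0.55 (SE 0.23, adjusted p = 0.0613) stood just outside it.

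**Figure D5:**
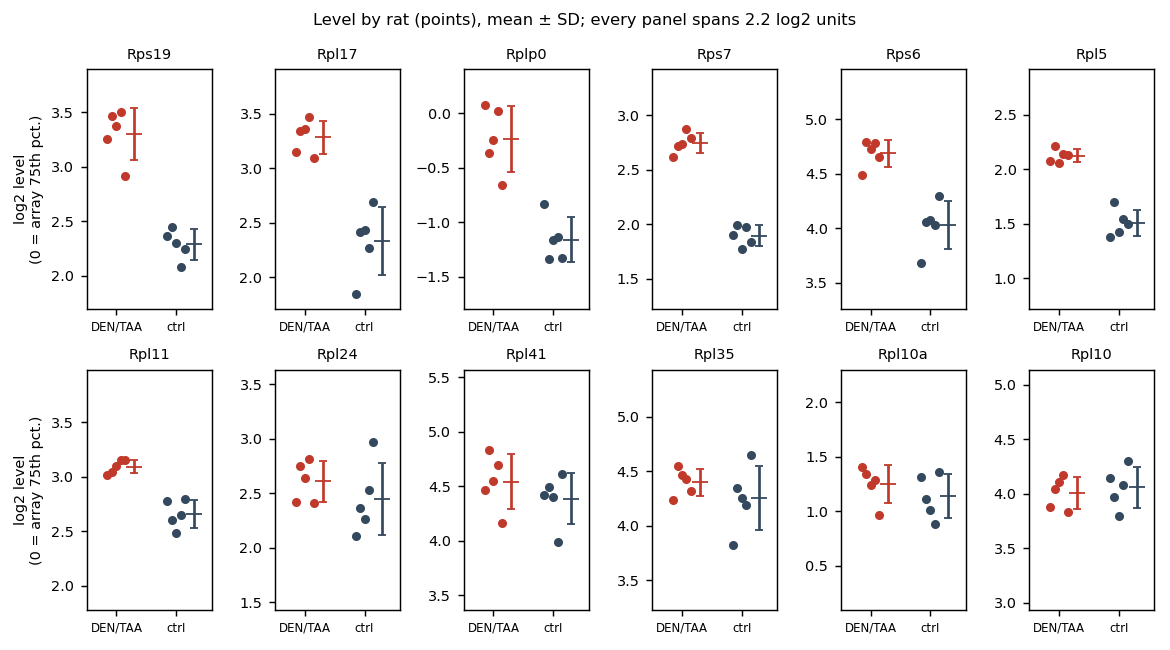
Log2 level relative to the array's 75th percentile (y axis; every panel spans 2.2 log2 units) of 12 ribosomal protein genes in DEN/TAA and control (ctrl) livers. Points are rats and bars are mean ± SD (n = 5 each). The genes of the top row, with Rpl11, show groups that lie apart, while Rpl24, Rpl41, Rpl35, Rpl10a and Rpl10 overlap.

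Scaling by a percentile or by spike-ins moves all genes of an array together. The genes were therefore also compared with each other, after each array was centred on the median of its ribosomal protein genes. Quantile normalisation and normexp can also move the genes of an array against each other, which this centring does not remove. After centring, the percentile over all probes and the spike-ins give the same values as the main scaling by construction. These settings are therefore not separate evidence. The 10 settings that leave out 1 rat share most of their data. In the centred fit 1 member was higher than the group (15.1% of all genes were), 8 were lower (36.6% of all genes were) and 64 did not pass. The 8 below were Rpl10, Rpl10a, Rpl35, Rpl41, Rpl24, Rps2, Rps29 and Rpl36, so most of the 73 genes could not be distinguished from the group's shared shift with 5 rats each. The number below was 4 without DEN/TAA replicate 1 and 22 by the authors' values, and the number above was 2 without DEN/TAA replicate 5.

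Rpl10, which joins the large subunit in the cytoplasm as one of the last proteins and is needed for release of the export adaptor Nmd3, lay furthest below. Its levels were 3.88, 4.04, 4.11, 4.17 and 3.83 in DEN/TAA and 4.14, 3.97, 3.80, 4.08 and 4.29 in control livers. The groups overlap fully, with a difference of -0.05 (SE 0.14, adjusted p = 0.785) and, relative to the other ribosomal proteins, of -0.70 (SE 0.14, adjusted p = 0.00143). The sign of the first value depends on the scaling, being above 0 with normexp, quantile normalisation, the spike-ins and in the authors' table, whereas the second lay between -0.73 and -0.50 and past the threshold in all 22 alternative settings. Rpl10a, the protein of the L1 stalk that guides tRNA out of the ribosome, stood at 1.41, 1.34, 1.24, 1.29 and 0.96 in DEN/TAA and 1.31, 1.11, 1.01, 0.89 and 1.36 in control livers. Its difference was 0.11 (SE 0.15, adjusted p = 0.558), turning to -0.20 with the percentile over all probes, and relative to the group -0.54 (SE 0.15, adjusted p = 0.00912), past the threshold in 22 of 22 settings.

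Rpl35, at the tunnel exit, stood at 4.23, 4.55, 4.47, 4.43 and 4.32 in DEN/TAA and 3.83, 4.35, 4.26, 4.19 and 4.66 in control livers, with a difference relative to the group of -0.50 (SE 0.16, adjusted p = 0.017). Rpl41, the smallest ribosomal protein, stood at 4.47, 4.84, 4.55, 4.69 and 4.16 in DEN/TAA and 4.42, 4.50, 4.40, 3.99 and 4.61 in control livers, with a relative difference of -0.49 (SE 0.16, adjusted p = 0.0205). Rpl24, which bridges to the small subunit, stood at 2.42, 2.75, 2.64, 2.81 and 2.41 in DEN/TAA and 2.11, 2.36, 2.27, 2.53 and 2.97 in control livers. In these 3 genes control replicate 5 was the highest control rat. Rpl35 passed in 21 of 22 settings, Rpl41 and Rpl24 in 19 each and Rps2 in 18, but Rps29 (relative difference -0.41) in 11 and Rpl36 (-0.41) in 12, so the last 2 rest on the setting. With quantile normalisation the relative differences of Rpl41 and Rps2 were -0.10 and -0.05. By mean level Rpl10, Rpl35, Rpl41 and Rps2 were among the brightest members, at percentiles of 99.1 to 99.5 of all genes where the median member was at 97.8, but Rpl24 (97.2) and Rpl10a (93.5) were not. The part of brightness in these differences was not tested.

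Different probes of 1 gene gave like values. Of the 107 probes 106 passed the filter, of which 82 rose and 0 fell, where 35.5% of all 14277 probes rose and 13.7% fell. In the 24 genes with more than 1 tested probe, the probes of a gene differed by a median of 0.12 and by at most 0.29, in Rpl19 (0.47 and 0.76). The 5 probes of Rpl21 all rose, by 0.46 to 0.58, as did the 3 probes of Rpl5 (0.62 to 0.84) and the 4 of Rpl29 (0.40 to 0.69). The 4 probes of Rps2, with 0.20 to 0.32, all stayed short of the threshold, and the second probe of Rpl10 had a difference of 0.08. Calls were split in Rpl15, Rpl35a and Rps28. The split in Rpl15 sets a bright probe (0.81) against one that was well above background on 2 of 5 control arrays (0.67). In 18 of the 24 genes the dimmest probe had a larger difference than the brightest. Mammalian ribosomal protein genes have many processed pseudogenes, and without probe sequences it was not tested whether a probe also binds such copies.

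Ribosomal proteins whose symbols lie outside the rule were also examined. Rack1, a scaffold on the head of the small subunit, rose by 0.99 (SE 0.16, adjusted p = 0.000371), and Fau, the fusion that yields S30, had 0.15 (SE 0.14, adjusted p = 0.398).

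The factors that build ribosomes were also higher, with a higher median than the proteins they assemble under the percentile, quantile and spike-in scalings but not with normexp or by the authors' values. The percentile and spike-in scalings share this order by construction. Of 48 tested biogenesis factors 42 rose and 0 fell, where 39.2% of all genes rose, with a median of 1.07, against 0.61 for the ribosomal proteins. Only 25 of the 48 were above background on all 10 arrays, and the filter favours a rise in a gene that passed it through DEN/TAA arrays alone. With that stricter filter 21 of 25 rose and 0 fell, with a median of 0.96, where 32.3% of all genes rose. With normexp the medians were 0.42 and 0.65, and by the authors' values 0.46 and 0.80. Nop56, a core protein of the box C/D particles that methylate ribosomal RNA, averaged 0.11 ± 0.26 in DEN/TAA and -1.83 ± 0.17 in control livers (log2 level, SD, n = 5 each) and rose by 1.93 (SE 0.16, adjusted p = 3e-06). Ebna1bp2, of large subunit assembly, rose by 1.80 (SE 0.15). Among the abundant nucleolar proteins, chosen for mention after their values were seen, Npm1 rose by 1.75, Ncl by 1.60 and Fbl by 1.00.

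RNA polymerase I makes the precursor of ribosomal RNA. Of 14 tested genes for its subunits and factors, with Myc counted among them, 10 rose and 0 fell. Their median was 1.18, where 39.2% of all genes rose with a median of 0.33. Only 8 of the 14 were above background on all 10 arrays. Polr1a and Polr1b each cleared background in 1 of 5 control rats. They were 3.33- and 1.83-fold higher as measured, but 1.22- and 1.20-fold with dim arrays raised to the lowest signal above background. Myc, the transcription factor that drives many ribosome genes, averaged -1.23 ± 0.33 in DEN/TAA and -3.53 ± 0.60 in control livers and rose by 2.30 (SE 0.28, adjusted p = 4.05e-05). Polr1d, shared with RNA polymerase III, rose by 1.46 (SE 0.16), having cleared background in 4 of 5 control rats. The mTORC1 pathway and TOP regulators gave 6 rises and 0 falls among 18, a share of 33.3% and a median of 0.27, which is no more than among all genes (39.2% and 0.33). Only 11 of the 18 were above background on all 10 arrays. Sesn3, among the 6, passed the filter through DEN/TAA arrays alone. It was 2.71-fold higher as measured but 0.69-fold with dim arrays raised to the lowest signal above background. Of the 6, Eif4ebp1, a repressor of cap-dependent translation that mTORC1 inactivates, rose by 1.22 (SE 0.18), and Rheb, the GTPase that activates mTORC1, by 0.92 (SE 0.16).

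Of 14 tested mRNAs outside the ribosome with a TOP motif, 10 rose and 0 fell, where 39.2% of all genes rose. Of the 14, 10 were above background on all 10 arrays. The median of the 14 was 0.78, against 0.33 for all genes. Their quartiles were 0.24 and 1.11, where the ribosomal proteins had quartiles of 0.43 and 0.73. Vim, of mesenchymal intermediate filaments, rose by 3.32 (SE 0.26) and the histone chaperone Nap1l1 by 2.84 (SE 0.33), each clear of background in 4 of 5 control rats. The 4 that did not pass were the elongation factors Eef1a1 (0.12, SE 0.29) and Eef2 (-0.05, SE 0.24), Tpt1 (0.13, SE 0.17) and the initiation factor Eif4b (0.07, SE 0.22).

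In the p53 arm linked to ribosomal stress 5 of 8 rose and 0 fell, where 39.2% of all genes rose. Only 3 of the 8 were above background on all 10 arrays. Zmat3 rose by 2.23 (SE 0.17, with 4 of 5 control rats clear of background), Ccng1 by 1.77 (SE 0.20) and Mdm2, the partner of free Rpl5 and Rpl11, by 1.76 (SE 0.20). All 3 are p53 targets. Of 15 chaperone, import and surveillance genes 7 rose and 1 fell, and the share that rose, 46.7%, was near the 39.2% of all genes. Only 7 of the 15 were above background on all 10 arrays. Among those that rose, Zfand2a passed the filter through DEN/TAA arrays alone. Grwd1, clear of background in 2 of 5 control rats, was 1.71-fold higher as measured but 0.88-fold with dim arrays raised to the lowest signal above background. Dnajc2, a chaperone at the exit tunnel, rose by 1.24 (SE 0.17). Ipo7, an importin for ribosomal proteins, was clear of background in 2 of 5 control rats, and was 3.33-fold higher as measured but 2.14-fold with dim arrays raised to the lowest signal above background. Zfp598, which senses collided ribosomes, fell by 0.42 on the log2 scale (SE 0.15, adjusted p = 0.0295), a direction that turned to 0.24 with the spike-ins.

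The proteins of the mitochondrial ribosome, encoded by separate nuclear genes, had differences on both sides of 0. Of 65 tested 18 rose and 7 fell, with a median of 0.11, against 57 rises, 0 falls and a median of 0.61 among 73 cytosolic ones. The share that rose, 27.7%, was below that of all genes. Mrpl47 averaged -3.35 ± 0.16 in DEN/TAA and -4.43 ± 0.14 in control livers and rose by 1.08 (SE 0.14), with 3 of 5 control rats clear of background, and Mrps30 rose by 0.94 (SE 0.14). Mrpl14 fell by 0.69 on the log2 scale (SE 0.15) and Mrpl36 by 0.55 (SE 0.15). The sign of Mrpl47 turned with normexp (-0.04) and that of Mrpl36 with the spike-ins (0.11).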

How the data were processed

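Liver RNA of 5 DEN/TAA and 5 control rats was labelled (150 ng per array). Spot intensity was deposited as scanner output; per the file headers the program was Feature Extraction 11.5.1.1, where the submitters' processing notes give version 15.5. Processed signal is background-subtracted and not scaled between arrays, per the file headers. A deposited table of the authors' log2 values has the same rank order within each array as the raw median intensity, while its normalisation method was not given in the sources used here.

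Control spots and outlier flags were left out, log2 processed signals averaged per probe, and each array's 75th percentile over the 6229 probes well above background on all 10 arrays subtracted. No spot was saturated. Probes above background on at least 5 arrays were kept. Of 41012 probes, 17502 had 1 symbol through RefSeq accessions (GRCr8), 0 several and 23510 none; each gene was represented by its brightest passing probe. All 6855 genes were tested together with limma 3.58.1 in R 4.3.3 (lmFit, eBayes, two-sided, Benjamini-Hochberg, threshold 0.05), without covariates, and a second fit centred arrays on the median of the member genes. At least N-fold compares the brighter mean with the dim arrays' floor. The code was tested on simulated data.

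The members and gene lists were chosen with earlier results of these data known. Members named are the 6 highest and 6 lowest rises, up to 4 relative to the group in each direction, and 14 set symbols; elsewhere up to 2 per list and direction by smallest adjusted p. Some genes that the rule names are not reported here. Others were named after their values were seen. Alternatives were normexp (offset 50; on median spot signal, since the planned mean signal column was not in the files), quantile, all-probe percentile and spike-in scaling, the authors' table, other filters, the mean over probes, slide and replicate blocks, a trended robust prior, and leaving out each rat. Leaving out the 2 dimmest arrays, within-slide values, the background-subtracted share and raising dim arrays to the floor were added after seeing the data. Replicate numbers were not taken as pairs.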

Additional observations from a re-analysis of the deposited data

Results flagged for a closer look

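In Rps4x, the X-linked S4 protein of the small subunit, DEN/TAA replicate 3 stood at a log2 level of 1.22, apart from the other 4 DEN/TAA rats, of which the nearest was at 1.39. The gap took 0.786 of the group's range, above the critical value of 0.71 for 5 samples. All 5 DEN/TAA rats still lay above all 5 control rats, of which the highest was at 0.98. This was the only such value among 56 groups examined, where chance gives about 1 in 20.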

How the results depend on the processing

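No ribosomal protein gene fell in any of the 22 alternative settings. The number that rose (57) was 16 with the percentile over all probes and otherwise 54 to 73, and 54 to 61 when 1 rat was left out. The median difference (0.61) was 0.31 with the percentile over all probes, 0.80 both by the authors' values and after quantile normalisation, and 1.27 with the spike-ins, and 0.58 to 0.66 when 1 rat was left out. The probes that rose (82) numbered 19 with the percentile over all probes and 69 to 89 when 1 rat was left out; without a filter 1 probe fell, against 0. Members below the others (8) numbered 5 after quantile normalisation, 22 by the authors' values, 5 without a filter and 3 with the replicate block, and 4 to 9 when 1 rat was left out, with 4 without DEN/TAA replicate 1. Members above the others (1) numbered 6 after quantile normalisation, 4 by the authors' values, 2 with the filter on all 10 arrays and 2 with the trended robust prior, and 1 to 2 when 1 rat was left out (2 without DEN/TAA replicate 5). With the replicate block 56 genes rose; same-numbered rats deviated from their group means with correlations of -0.22 to 0.20, and 1 of 5 DEN/TAA rats correlated best with the control rat of its own number, so the numbers do not pair the rats. The cause of these shifts was not tested.

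Signs turned as follows. The median of all genes was -0.26 with normexp and -0.50 without a filter. Rpl10 was at 0.039 with normexp, 0.25 after quantile normalisation, 0.61 with the spike-ins, 0.40 by the authors' values, 0.014 as a mean over probes, -0.12 to 0.0082 when 1 rat was left out (above 0 without control replicate 5) and 0.057 without the 2 dimmest arrays. With the percentile over all probes Rpl10a was at -0.20, Rpl35 at -0.16 and Rpl41 at -0.15. With normexp Cd3g was at -0.25, Zap70 at -0.25, Cdk1 at -0.072 and Mrpl47 at -0.040. With the spike-ins Mrpl36 was at 0.11 and Zfp598 at 0.24. Of the other values of single genes under the alternatives, 1395 kept direction and side of the threshold, 100 lost the threshold and 8 gained it. Rps19, Rpl17, Rplp0, Rps7 and Rps27a passed in all 22. Rpl32 passed in 10 and Rps18 in 15, and both were lost without DEN/TAA replicate 2 and without control replicate 3.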

Other observations

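Among the genes with an l ending that the rule leaves out, 5 of 8 were tested. Of these 3 rose and 0 fell, where 39.2% of all genes rose, and 5 genes are too few to compare the shares. Rpl22l1, a paralog of Rpl22, averaged -0.997 ± 0.38 in DEN/TAA and -1.85 ± 0.63 in control livers (log2 level, SD, n = 5 each) and rose by 0.85 (SE 0.30, adjusted p = 0.0294), with Rpl22 at 0.71. Rplp1l1 rose by 0.72 and Rpl37l1 by 0.43, while Rpl37al2 (0.55) and Rpl36al1 (-0.06) did not pass.

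The 73 genes lie on 19 chromosomes, at most 13 on one, with 4 on X.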
